A study of Mus musculus with 16 samples.

Results

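Cgref1, Fam83a and Krt23 are 3 protein-coding genes of low to moderate level in mouse liver, described here in every library of a study of hepatic Cpt1a loss. They are 3 of the 25803 genes counted, and all 3 were among the 14488 that passed the filter on low counts. They were selected on measured values of these same libraries, namely large differences between genotypes or feeding states. Their own levels and fold changes are therefore a description and carry no test.

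The study sequenced poly-A RNA from whole liver of male mice kept for 12 weeks on a high-fat diet (HFD), in 16 libraries. Each of 4 groups, control or liver knockout of Cpt1a (Cpt1a LKO) and fasted or refed, had 4 libraries. Fasted mice had gone 16 h without food at necropsy, and refed mice had then eaten for 6 h. All groups shared the sex and the diet. The series' design text calls the control mice WT, and the labels give neither how the knockout was made nor the promoter of any Cre. By the headings of the deposited tables, libraries S40 to S43 are fasted control and S44 to S47 are fasted LKO livers. Libraries S48 to S51 are refed control and S52 to S55 are refed LKO livers. The labels do not say that each library came from a separate mouse, so the p-values given below measure only the spread between these libraries.

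Cgref1 (cell growth regulator with EF-hand domain, first described as CGR11) encodes a secreted protein with calcium-binding EF hands that restrains growth when overexpressed, and it was found together with Cgrrf1 as a gene induced by p53. Fam83a belongs to the FAM83 family, whose shared domain binds casein kinase 1, and its human counterpart has been linked to signalling from the epidermal growth factor receptor through RAF and PI3-kinase in tumour cells. Krt23 is a type I keratin, a filament protein of epithelia, known in liver as a stress-inducible keratin of the ductular reaction and reported in mouse liver as a target of PPARA, the nuclear receptor that turns on fatty acid oxidation during a fast. Cpt1a, the targeted gene, encodes the enzyme of the outer mitochondrial membrane through which long-chain fatty acids enter oxidation.

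In the coordinates of the deposited tables, Cgref1 (ENSMUSG00000029161) lies on the minus strand at chr5:31090487-31102935, Fam83a (ENSMUSG00000051225) on the plus strand at chr15:57848815-57874405 and Krt23 (ENSMUSG00000006777) on the minus strand at chr11:99368800-99383963. The submitters' processing notes name the build mm39. No other gene of the joined tables overlaps any of them. RefSeq's promoter table, on the older build GRCm38.p6, matched 2 of the 3 genes, Cgref1 and Krt23, and no entry matched Fam83a. The 250 bases upstream of the start of both genes are shown, in the direction of the gene, because one gene differed mainly by genotype and the other mainly by feeding state. Capitals mark a GC box (GGGCGG) in Cgref1 and an E box (CACGTG) in Krt23.
Cgref1, chr5:30945481-30945730, minus strand: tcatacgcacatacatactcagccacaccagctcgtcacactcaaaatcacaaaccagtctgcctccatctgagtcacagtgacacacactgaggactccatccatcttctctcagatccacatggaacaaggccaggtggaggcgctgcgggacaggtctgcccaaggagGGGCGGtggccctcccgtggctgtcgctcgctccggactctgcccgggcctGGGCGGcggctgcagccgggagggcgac
Krt23, chr11:99493121-99493370, minus strand: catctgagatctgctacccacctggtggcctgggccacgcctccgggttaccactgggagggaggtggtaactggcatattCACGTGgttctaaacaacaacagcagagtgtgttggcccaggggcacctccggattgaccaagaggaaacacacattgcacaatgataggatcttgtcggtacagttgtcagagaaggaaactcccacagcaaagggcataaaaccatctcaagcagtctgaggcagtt
The Cgref1 stretch had 62.4% G and C and the Krt23 stretch 52.8%, beside a median of 52.4% over all 32851 promoter windows. The GC boxes of Cgref1 began 79 and 28 bases before its start, and 32.7% of all windows hold one. The E box of Krt23 began 169 bases before its start, and 6.02% of all windows hold one. Upstream of a further annotated start of Cgref1, inside the gene, an E box began 43 bases before that start. Both strands of the 250 upstream bases were searched, and the bases after the start were not. The other motifs searched were TATAAA (12.4% of windows), CCAAT (33.8%), the nuclear receptor site AGGTCA (14%), a direct repeat of that site with 1 base between the copies, the form that PPARA binds (0.0335%), the FOXO motif GTAAACA (3.17%) and the cyclic AMP element TGACGTCA (1.55%). None of these letters occurred in the upstream stretches of Cgref1 or Krt23. The direct repeat holds the single site, and no match overlapped another.

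Libraries held 14721601 to 24618230 counts, and replicates of a group correlated at r = 0.968 to 0.986 (over genes, on log2 CPM, and genes are no independent replicates). Levels are given as CPM, which is the count divided by the scaled library total in mega counts. Cpt1a stood at 487 ± 83.2 CPM in fasted control and 101 ± 17.3 in fasted LKO livers, and at 457 ± 137 and 54.2 ± 16.6 CPM in the refed state (SD, n = 4), with no overlap between the genotypes in either state. The summed level of 7 hepatocyte genes, the check of the labelled tissue, ran from 59919 to 85700 CPM over the 16 libraries. Library S44 stood apart from the other fasted LKO libraries in several bile duct genes, whose values are given beside Krt23.

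Cgref1 was the gene of the 3 with the largest genotype difference after a fast. In fasted controls S40 to S43 its level was 4.37, 4.49, 2.97 and 3.03 CPM, and in fasted LKO S44 to S47 it was 62.8, 11.7, 55.4 and 16.2 CPM. Every LKO library lay above every control library, and the lowest LKO library was 2.59 times the highest control. The LKO libraries themselves were far apart, with S44 and S46 well above S45 and S47. Group means were 3.71 ± 0.83 CPM in control and 36.5 ± 26.3 in LKO (SD, n = 4).

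After refeeding the genotypes were again apart in Cgref1, by less. Controls S48 to S51 held 3.58, 1.91, 3.46 and 6.65 CPM, against 10.03, 16.4, 19.3 and 12.3 CPM in the LKO libraries S52 to S55. The lowest refed LKO library was 1.51 times the highest refed control, which was S51. The means were 3.90 ± 1.99 and 14.5 ± 4.14 CPM (SD, n = 4). The fitted log2 fold change of LKO over control was 3.29 (SE 0.49) in the fasted and 1.91 (SE 0.49) in the refed state, ranks 23 and 110 from the highest of 14488 genes.

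In control livers the Cgref1 difference with feeding was smaller than its SE. The log2 fold change of refed over fasted was 0.04 (SE 0.52) in control, with the 2 groups of libraries overlapping, and leaving out 1 library moved it between -0.32 (without S51) and 0.27 (without S49). In LKO livers it was -1.34 (SE 0.44), and the groups overlapped there too, because the refed libraries, from 10.03 to 19.3 CPM, lay around S45 and S47, while S44 and S46 stood clear above them. Without S44 the difference was -0.95. The genotype effect in the refed state minus that in the fasted state was -1.38 (SE 0.68).

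**Figure D1:**
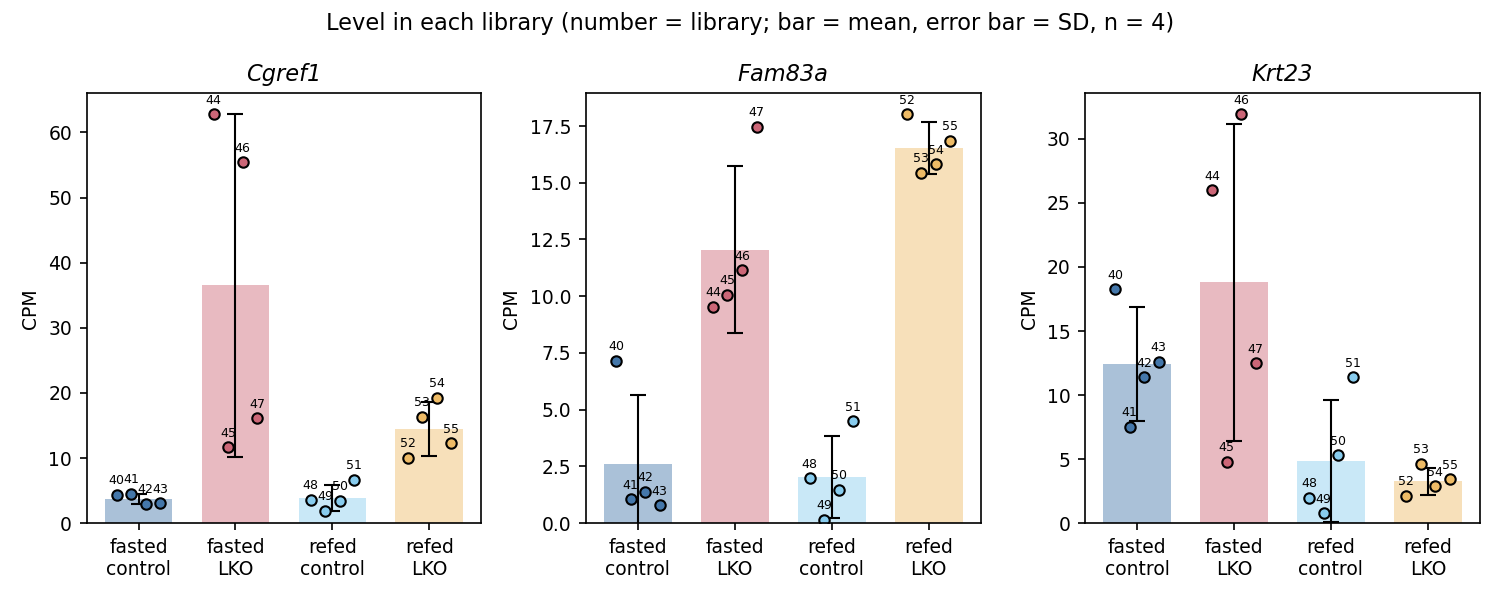
CPM of Cgref1, Fam83a and Krt23 in each of the 16 libraries, with 1 panel per gene and its own linear axis; points are libraries numbered 40 to 55, bars are group means and error bars are SD (n = 4, lower arm not drawn below 0). Cgref1 and Fam83a are higher in every LKO library than in any control library of the same feeding state, while Krt23 separates mainly the fasted from the refed libraries, with S45 and S51 out of step.

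Fam83a was low in control livers, at a few reads to 144 reads a library, and higher in every LKO library. In the fasted state the controls S40 to S43 held 7.15, 1.05, 1.39 and 0.803 CPM (144, 18, 22 and 13 reads), and the LKO libraries S44 to S47 held 9.53, 10.1, 11.2 and 17.5 CPM. The groups did not overlap, although S40, the highest control by far, came within 1.33 times of the lowest LKO library. The means were 2.60 ± 3.04 and 12.1 ± 3.67 CPM (SD, n = 4), and the control SD exceeded its mean because of S40.

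In the refed state the controls S48 to S51 held 1.98, 0.159, 1.47 and 4.48 CPM of Fam83a, the second value being 3 reads. Fam83a in S52 to S55 was at 18.0, 15.4, 15.8 and 16.8 CPM, or 236 to 389 reads. The LKO libraries lay close together, at 16.5 ± 1.15 CPM, and 3.45 times above the highest control library at the least, where the controls averaged 2.02 ± 1.81 CPM (SD, n = 4).

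The fitted log2 fold change of Fam83a in LKO over control was 2.16 (SE 0.59) after the fast and 3.09 (SE 0.61) after refeeding, ranks 62 and 33 from the highest. Leaving out S40 turned the fasted value to 3.47, the largest move of any single library, and leaving out S51 turned the refed value to 3.79. The effect of feeding was -0.47 (SE 0.66) in control and 0.46 (SE 0.52) in LKO livers, both with overlapping groups, and the control value was 0.84 without S40. The genotype effect in the refed state minus that in the fasted state was 0.93 (SE 0.84), and it changed sign to -0.38 without S40. The authors' deposited table gives 2.20 for the fasted genotype contrast of Fam83a and no p-value there.

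Krt23 varied with feeding more than with genotype. The fasted controls S40 to S43 held 18.3, 7.53, 11.4 and 12.6 CPM and the fasted LKO libraries S44 to S47 held 26.0, 4.81, 31.9 and 12.5 CPM. The LKO libraries spanned the whole range of the controls, with S44 and S46 above all controls and S45 below all. The means were 12.4 ± 4.45 and 18.8 ± 12.4 CPM (SD, n = 4), and the log2 fold change of LKO over control was 0.60 (SE 0.56).

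In the refed state the controls S48 to S51 held 1.98, 0.797, 5.29 and 11.4 CPM of Krt23, against 2.15, 4.64, 2.90 and 3.42 CPM in S52 to S55. The genotypes overlapped, and S51 alone lay in the range of the fasted controls. The means were 4.87 ± 4.75 and 3.28 ± 1.05 CPM (SD, n = 4). The log2 fold change of LKO over control was -0.56 (SE 0.65), and it was 0.22 without S51.

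Refed over fasted, Krt23 was lower in both genotypes. In LKO livers all 4 refed libraries lay below all 4 fasted ones, by a log2 fold change of -2.53 (SE 0.62), the 17th lowest of 14488 genes. The margin was thin, since S45 at 4.81 CPM was only 1.04 times the highest refed library, S53. In control livers 3 of 4 refed libraries lay below all fasted ones and S51 did not, and the log2 fold change was -1.38 (SE 0.60), the 131st lowest. Without S51 it was -2.15. The genotype effect of the refed state less that of the fasted state was -1.15 (SE 0.86), and -0.38 without S51.

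**Figure D2:**
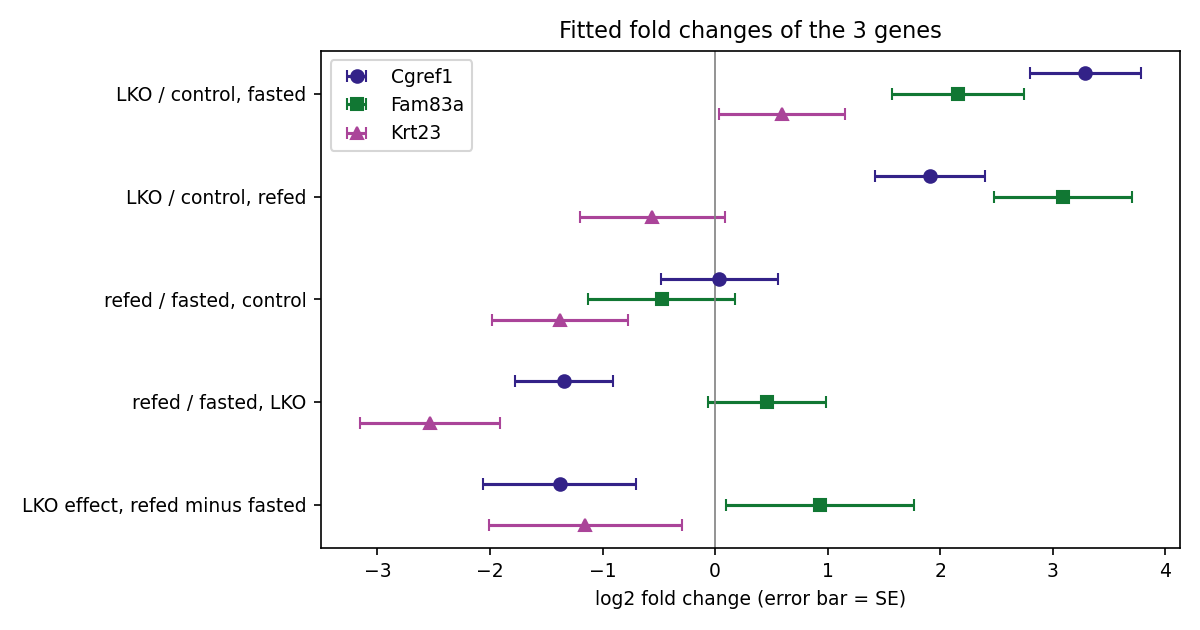
Fitted log2 fold changes of Cgref1, Fam83a and Krt23 in the 4 group contrasts and the difference of the LKO effect between the states, on a linear axis; points are edgeR estimates and bars are 1 SE on each side. The Cgref1 and Fam83a points lie right of 0 in both genotype contrasts, and the Krt23 points lie left of 0 in both feeding contrasts.

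Counted over the 3 genes, 2 had every fasted LKO library above every fasted control library, where 8.3% of all genes tested did, and 2 had this in the refed state, where 6.7% did. None of the 3 had every refed control library below every fasted control library (10.1% of all genes), and 1 had this in LKO livers (9.95%). The genes were chosen by these contrasts, so nothing is read from those counts. The genotype contrasts and the feeding contrasts share libraries and are not independent of each other.

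Per length, the order of the 3 genes changed between groups. In fasted control livers the mean level in CPM per kilobase of the deposited gene length was 7.95 ± 2.84 for Krt23, 1.78 ± 0.398 for Cgref1 and 0.819 ± 0.960 for Fam83a (SD, n = 4). In fasted LKO livers Cgref1 at 17.5 ± 12.6 and Krt23 at 12.0 ± 7.92 CPM per kilobase overlapped within their spread, and Fam83a stood at 3.80 ± 1.16. In refed control livers Krt23 stood at 3.11 ± 3.04, Cgref1 at 1.87 ± 0.954 and Fam83a at 0.638 ± 0.570 CPM per kilobase, and neighbours in that order overlapped. In refed LKO livers the level of Cgref1 was 6.95 ± 1.99, that of Fam83a 5.21 ± 0.364 and that of Krt23 2.10 ± 0.670 CPM per kilobase. Cgref1 and Fam83a overlapped there, while every Krt23 value, at most 2.97, lay below every Fam83a value, at least 4.87. Cpt1a, for scale, stood at 63.7 ± 10.9 CPM per kilobase in fasted control livers.

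All 3 genes varied more between libraries of one group than most genes do. The SD of log2 CPM within groups was 0.76 for Cgref1, 1.11 for Fam83a and 1.06 for Krt23, against a median of 0.23 over all genes tested, at percentiles 96.1, 99.2 and 99.03. Among genes of similar mean level the percentiles were 98.5, 99.6 and 99.6. For Cgref1 the widest group was fasted LKO (SD of log2 CPM 1.23). For Fam83a it was refed control (1.73), with 0.10 in refed LKO, and for Krt23 refed control too (1.60).

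Across the 16 libraries Cgref1 and Fam83a were the most alike of the 3 pairs, with Pearson's r = 0.78 of log2 CPM, then Cgref1 and Krt23 with 0.44 and Fam83a and Krt23 with 0.24. These are descriptions over libraries that share the 4 groups, with no test. Within fasted LKO livers the libraries with high Cgref1, S44 and S46, were also those with high Krt23, while Fam83a was highest in S47. Among controls S40 was the highest fasted library in Fam83a and Krt23, and S51 the highest refed library in all 3 genes.

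The genes most like each of the 3 were taken as the 5 with the highest Pearson's r of log2 CPM over the 16 libraries among 12361 named protein-coding genes tested. For Cgref1 they were Cntnap1 (0.982), Ralgps2 (0.971), Agap2 (0.968), Tmed4 (0.962) and Sel1l3 (0.957). Cntnap1, a neuronal cell adhesion protein, stood at 12.5, 10.3, 9.23 and 7.84 CPM in fasted control and at 92.4, 35.0, 99.6 and 38.0 CPM in fasted LKO livers. S44 and S46 were its 2 highest libraries, as for Cgref1. After refeeding its mean was 9.40 ± 4.51 CPM in control and 40.2 ± 12.0 CPM in LKO livers (SD, n = 4). Agap2, a GTPase-activating protein for ARF proteins, had means of 4.22 ± 1.14 and 31.5 ± 22.5 CPM in control and LKO livers after the fast, and of 4.61 ± 1.43 and 18.3 ± 4.45 CPM after refeeding.

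For Fam83a the 5 were Osbpl3 (0.915), Ttc39a (0.913), Drosha (0.904), Mlkl (0.894) and Micu2 (0.886). Osbpl3, an oxysterol-binding protein relative, stood at 22.9, 8.70, 8.91 and 12.7 CPM in fasted control and at 38.3, 29.1, 41.8 and 39.2 CPM in fasted LKO libraries. In refed livers its level was 12.6, 2.23, 8.92 and 25.8 CPM in control and 23.1, 28.3, 36.8 and 22.6 CPM in LKO libraries. S40 and S51 were its highest controls and S49 its lowest, the same libraries as for Fam83a. Drosha, the nuclear nuclease of microRNA maturation, moved far less, from 10.9 ± 1.37 to 14.6 ± 1.05 CPM after the fast and from 10.95 ± 0.898 to 15.01 ± 1.07 CPM after refeeding, control to LKO (SD, n = 4).

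For Krt23 the 5 were Phax (0.949), Tbc1d17 (0.939), Gpcpd1 (0.928), Atg2a (0.927) and Ypel3 (0.927). Atg2a, a lipid transfer protein of autophagosomes and lipid droplets, had means of 75.0 ± 9.37 and 75.2 ± 8.83 CPM in fasted control and LKO livers and 50.2 ± 8.89 and 48.8 ± 3.92 CPM in the refed groups (SD, n = 4). Gpcpd1, which splits glycerophosphocholine, stood at 85.4, 48.5, 163 and 45.9 CPM in S44 to S47 and at 70.0 CPM in S51, where the other refed controls were between 18.7 and 32.2. Ranked by Spearman's rho instead, 1 of the 5 genes stayed among the 5 for Cgref1, 2 for Fam83a and 4 for Krt23.

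**Figure D3:**
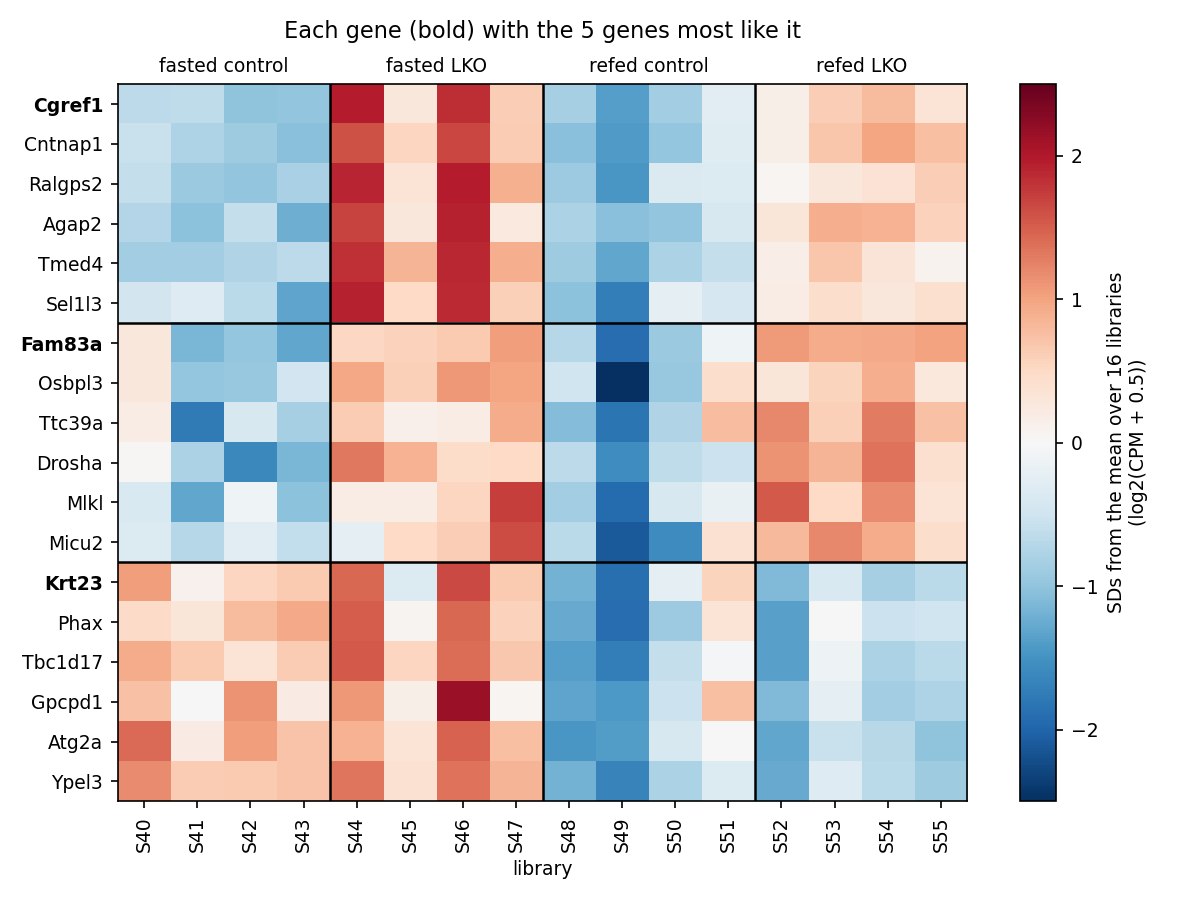
Levels of Cgref1, Fam83a and Krt23 (bold) and the 5 genes most like each, in 16 libraries grouped by genotype and feeding state; color gives log2 CPM as SDs from the gene's own mean over the 16 libraries. The Cgref1 block is red in S44 and S46, and the Fam83a block is blue in S49. The Krt23 block is mostly red in fasted and mostly blue in refed libraries, while Krt23 itself lies below its mean in S45 and above it in S51.

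The nearest gene to Cgref1 is Khk, which encodes ketohexokinase, the first enzyme of fructose use. It lies on the opposite strand 1895 bases from the 3′ end of Cgref1, at chr5:31078775-31088592, so the 2 genes point toward each other. Khk stood at 530, 574, 619 and 712 CPM in fasted control and 231, 385, 216 and 330 CPM in fasted LKO libraries. The groups did not overlap, and the 2 lowest libraries, S44 and S46, were the 2 highest in Cgref1. Khk fell with a log2 fold change of -1.07 (SE 0.21) in fasted LKO livers (edgeR's quasi-likelihood test, Benjamini-Hochberg adjusted over 14488 genes, quoted below as adjusted p, 0.00416). That call held without each of the 16 libraries in turn, with edgeR adjusted p at most 0.0187.

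After refeeding Khk stood at 588, 831, 466 and 481 CPM in control and 456, 323, 287 and 300 CPM in LKO libraries, again without overlap. The difference was -0.79 on the log2 scale (SE 0.21, adjusted p = 0.0488), which held in 6 of the 16 fits that leave out 1 library and reached 0.133 without S55. The other tested genes around Cgref1 did not pass: Preb, 5262 bases away, had log2 fold changes of 0.09 (SE 0.10) and 0.14 (SE 0.10) in the fasted and refed genotype contrasts, and Emilin1 0.02 (SE 0.15) and 0.04 (SE 0.15). Abhd1, 4475 bases away on the other strand, was below the filter on low counts.

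**Figure D4:**
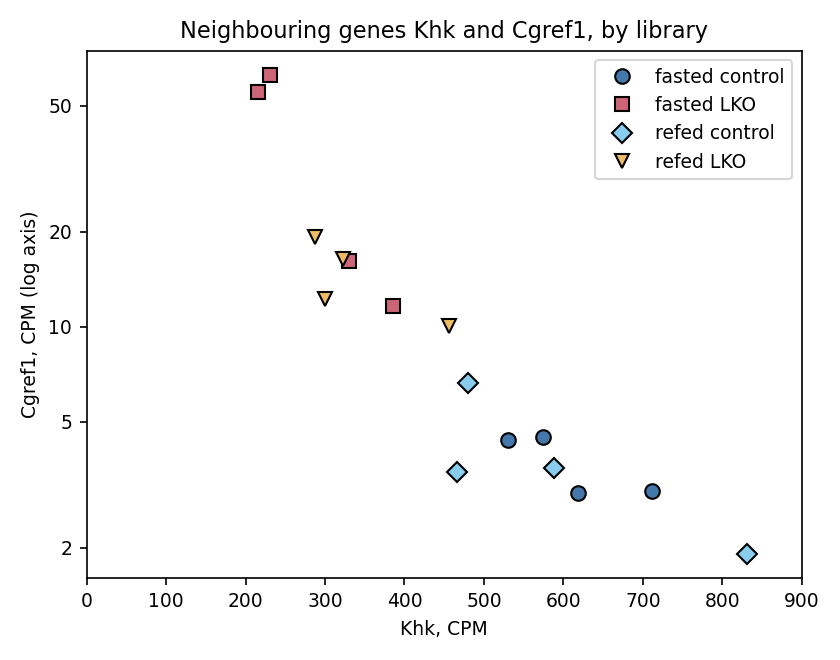
CPM of Khk (linear axis) against CPM of its neighbor Cgref1 (log axis) in the 16 libraries, 1 point each, marked by group. The LKO libraries lie at lower Khk and higher Cgref1 than the control libraries, and S44 and S46 lie at the upper left with 231 and 216 CPM of Khk.

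Beside Fam83a, Tbc1d31, 15352 bases away on the same strand, had means of 5.35 ± 1.19 CPM in fasted control and 8.92 ± 0.673 CPM in fasted LKO livers (SD, n = 4), a log2 fold change of 0.74 (SE 0.25) that did not pass (edgeR adjusted p = 0.066). Derl1 was at 0.20 (SE 0.10) and 9130401M01Rik at 0.35 (SE 0.12) in the same contrast, and neither passed (edgeR adjusted p = 0.226 and 0.0715). Gm29394 was below the filter. Around Krt23 the keratin gene Krt20 was at 0.0622 CPM or less in every group mean, Gm11557 was below the filter too, and Krt10 and Gm11560 had log2 fold changes of -0.26 (SE 0.17) and -0.09 (SE 0.24) in fasted LKO livers, which did not pass (edgeR adjusted p = 0.372 and 0.855).

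None of the relatives of Fam83a tested was called higher in LKO livers. Of 7 other FAM83 genes, 3 were tested. Fam83h, whose human counterpart anchors casein kinase 1 on keratin filaments, held 29.7, 28.5, 27.2 and 28.8 CPM in fasted control, and it fell on refeeding in control (log2 fold change -0.49, SE 0.13, adjusted p = 0.0185) and in LKO livers (-0.77, SE 0.13, adjusted p = 8.05e-04). The control call was lost without S40 and without S48 (adjusted p up to 0.0566). Fam83f was lower in fasted LKO than in fasted control livers (-1.33, SE 0.39, adjusted p = 0.0343), a call lost without S40, S43, S44, S46 or S47 and reaching 0.118 without S43. Thus 0 of 3 were called higher and 1 lower in fasted LKO livers, where 5.75% of all genes tested were called higher and 6.48% lower, and by edgeR 0 of 3 in either direction in refed LKO livers (0 at an unadjusted p under 0.05, and 0 by DESeq2), where 2.28% of all genes were called higher and 1.35% lower. On refeeding 0 were called higher and 1 lower in each genotype, beside 7.79% higher and 7.65% lower of all genes in control and 9.28% higher and 8.78% lower in LKO livers.

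Among 22 genes that act with FAM83A (receptors, RAS, RAF, MAP kinases, PI3-kinase subunits and casein kinase 1 forms), 4 were called higher and 1 lower in fasted LKO livers, with a median log2 fold change of 0.10 beside 0.02 over all genes, of which 5.75% were called higher and 6.48% lower. Nras, a RAS protein, rose by 0.41 (SE 0.08, adjusted p = 0.00435), and Erbb3, a receptor partner of the epidermal growth factor family, rose by 0.84 (SE 0.21, adjusted p = 0.0152), a call lost without S42 or S46 (up to 0.0549). Csnk1a1, a casein kinase 1, was also called higher (0.28, adjusted p = 0.0153, and 0.0523 without S41). Pik3r1, a regulatory subunit of PI3-kinase, was lower (-0.79, adjusted p = 0.0297, up to 0.103 without S41). Without S41, S42 or S46 only 2 were called higher, and without S41, S44, S46 or S47 none was called lower. In refed LKO livers edgeR called 0 of 22, with 2 higher and 4 lower at an unadjusted p under 0.05, and DESeq2 called 1 higher. There edgeR called 2.28% of all genes higher and 1.35% lower. Refeeding gave 4 higher and 2 lower calls in control (2 higher without S40, S48, S49 or S50) and 2 higher and 4 lower in LKO livers (1 higher without S47, S52 or S55 and 2 lower without S53 or S55). Of all genes, 7.79% were called higher and 7.65% lower in control, and 9.28% higher and 8.78% lower in LKO livers. The lower calls in control and the higher calls in LKO livers were near those shares.

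The other keratins were followed for Krt23. Of 26, 6 passed the filter on low counts, and 20 did not. Krt8 and Krt18, the keratin pair of hepatocytes, stood at 373 ± 62.3 and 242 ± 40.9 CPM in fasted control livers, and neither passed in any of the 4 contrasts. Krt18 moved with refeeding by -0.26 (SE 0.14) in control and -0.19 (SE 0.14) in LKO livers. No keratin was called in the genotype contrasts of either state (in the fasted one, 1 higher without S45, S46 or S47 and 1 lower without S47) or in refed against fasted control livers. In those 3 contrasts DESeq2 called 0 too, and 2 were higher at an unadjusted p under 0.05 in the fasted genotype contrast, with 0 in the others. Over all genes 5.75% were called higher and 6.48% lower in the fasted genotype contrast, and 2.28% and 1.35% in the refed one. In control livers 7.79% were called higher and 7.65% lower on refeeding. With 6 keratins tested, counts of 0 were near those shares. Krt19 was called lower in refed than in fasted LKO livers by edgeR, while DESeq2 gave it no adjusted p (edgeR log2 fold change -2.53, SE 0.85, adjusted p = 0.0496). It was the 1 keratin of 6 called there, beside 9.28% of all genes called higher and 8.78% lower. Krt19, a bile duct keratin, stood at 29.0 CPM in S44 and between 0.85 and 2.22 CPM in the other 15 libraries, and without S44 its difference was 0.24 (edgeR adjusted p = 0.676). The call held in 3 of the 16 fits that leave out 1 library.

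Several bile duct genes, though not all of the 12 duct markers, were high in 1 of the libraries with high Krt23. Spp1 and Sox9, also duct markers, stood at 34.9 and 4.39 CPM in S44, below their 54.6 and 7.58 CPM in S47. Muc1 stood at 18.9, Epcam at 7.89 and Krt7 at 4.59 CPM in S44, against at most 2.13, 2.33 and 1.66 CPM in the other libraries, and Fam83e at 3.39 CPM in S44 against 0.102 or less. Krt23 was at 26.0 CPM in S44, yet it was higher still in S46, at 31.9 CPM, where Krt19 stood at 1.12 and Muc1 at 0.673 CPM. The summed level of the 12 duct markers was 129 CPM in S44 and 55.5 to 98.0 CPM in the other fasted LKO libraries, 58.6 to 88.9 in fasted control, 52.2 to 84.2 in refed control and 58.2 to 64.1 CPM in refed LKO libraries. In bulk tissue more cells of a type and more RNA per cell cannot be told apart. Without S44 the feeding difference of Krt23 in LKO livers was -2.33.

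**Figure D5:**
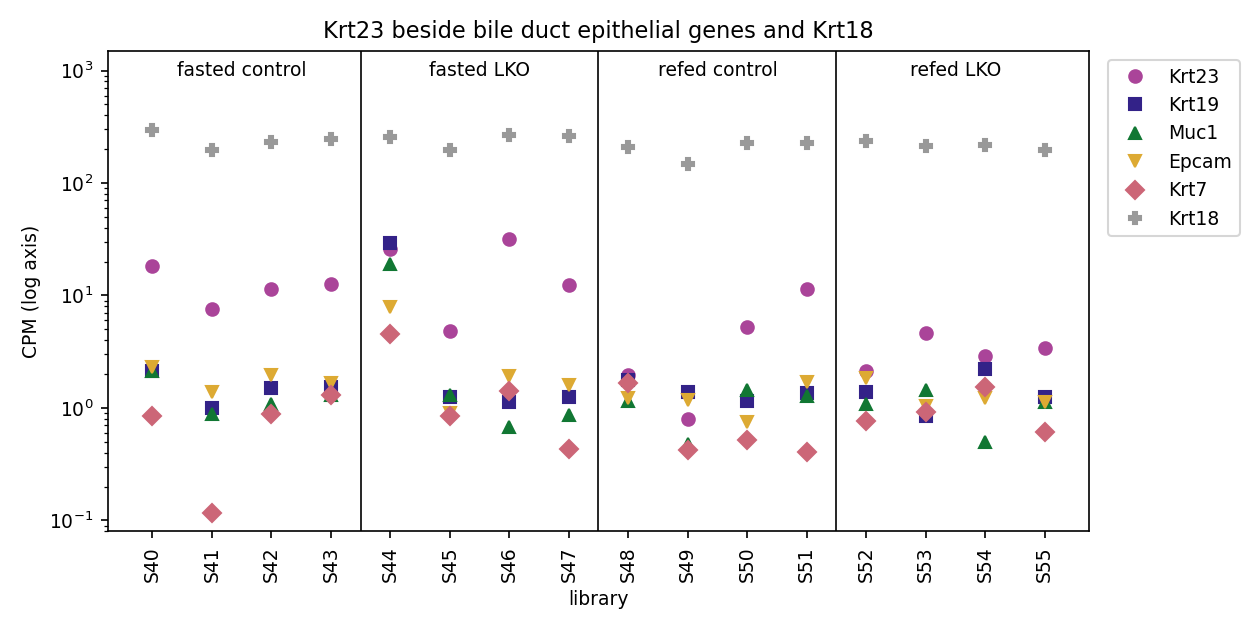
CPM of Krt23, the bile duct genes Krt19, Muc1, Epcam and Krt7, and the hepatocyte keratin Krt18 in the 16 libraries, on a log axis with 1 column per library. The duct genes are high in S44 alone, Krt23 is high in S44 and S46, and Krt18 lies between 147 and 296 CPM throughout.

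Markers of other cell types were read beside the 3 genes, and their part in the results was not tested. The 5 B or plasma cell markers summed to 2.78 to 6.50 CPM (control) and 11.7 to 32.5 CPM (LKO) after the fast and to 3.22 to 4.94 and 15.5 to 36.8 CPM after refeeding, apart by genotype as Cgref1 and Fam83a were. Most of that sum was Jchain (means of 1.78, 18.4, 1.67 and 23.8 CPM in that order), while Cd79a, Ms4a1 and Mzb1 averaged 1.99 CPM or less. The 4 intestinal epithelial markers in the tables summed to 204 to 222 CPM in fasted control and 312 to 414 CPM in fasted LKO livers, and to 167 to 189 and 277 to 354 CPM in the refed groups, also apart by genotype. Nearly all of it was Fabp2 and Lgals4, fatty acid and galactoside binding proteins, while Vil1 and Muc2 averaged 0.57 CPM or less. The squamous epithelial markers, of which 4 of 5 were in the tables and 3 of these averaged under 0.1 CPM, summed to 3.24 CPM or less in every library. Summed hepatocyte markers were lower in fasted LKO (59919 to 67998 CPM) than in fasted control libraries (69081 to 77738 CPM). After refeeding these sums overlapped, at 68030 to 85700 CPM in control and 60868 to 74228 CPM in LKO libraries. Summed levels of the stellate cell, endothelial, macrophage, T cell, neutrophil, red blood cell, adipocyte and mesothelial lists overlapped between the genotypes in both states. Of 6 pancreatic acinar markers 2 were in the tables, and after refeeding they summed to 21.04 to 32.5 CPM in control against 12.9 to 14.4 CPM in LKO livers, while after the fast the genotypes overlapped.

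The p53 targets were followed for Cgref1, with Cgrrf1, the gene found beside it. Cgrrf1 stood at 36.9 ± 1.32 CPM in fasted control and 34.3 ± 1.65 CPM in fasted LKO livers (SD, n = 4) and passed in none of the 4 contrasts. Of 20 genes, 3 were called higher in fasted LKO livers (1 without S40, and 5 without S43, S45 or S49) and 4 in refed LKO livers (2 without S48), beside 5.75% and 2.28% of all genes. Without S40 the fasted count was near the share over all genes. None was called lower in either contrast by edgeR or DESeq2, and 0 were lower at an unadjusted p under 0.05. The medians were 0.33 and 0.46, beside 0.02 and -0.01 over all genes. Phlda3, which restrains AKT, was called in both, with log2 fold changes of 1.22 (SE 0.36, adjusted p = 0.0345, lost without S40, S41, S42 or S47 and reaching 0.124 without S47) and 2.05 (SE 0.38, adjusted p = 0.00819).

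Tnfrsf10b, a death receptor, was called higher in fasted LKO livers (log2 fold change 1.62, SE 0.38, adjusted p = 0.0106), and it was the p53 target most like Fam83a, with r = 0.839 over the 16 libraries, rank 20 of all candidates. Eda2r, a receptor of the same family, was at 0.0639, 0, 0.0796 and 0.272 CPM in S48 to S51 and at 1.53, 1.31, 1.30 and 1.56 CPM in S52 to S55, and it was called higher there (3.81, SE 0.53, adjusted p = 0.00103). Aen (0.67, adjusted p = 0.0146, and 0.054 without S48) and Ccng1 (0.74, adjusted p = 0.0224, up to 0.0788 without S48) were the other calls in refed LKO livers, and Perp (0.30, adjusted p = 0.0163, and 0.0539 without S40) the other in fasted LKO livers. On refeeding, 4 were called lower in control (3 to 5 when 1 library was left out) and 2 lower in LKO livers (1 without S44, S46, S47, S52, S53 or S55). Of all genes, 7.65% were called lower in control and 8.78% in LKO livers, and the LKO count was near that share. On refeeding, 0 were called higher by edgeR or DESeq2 in either genotype (1 in each at an unadjusted p under 0.05), except 2 in LKO livers without S47. Over all genes the shares called higher were 7.79% in control and 9.28% in LKO livers.

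Targets of PPARA, the fatty acid receptor that turns on genes of fat oxidation, were read in both feeding states. In fasted LKO livers edgeR called 23 of 30 higher and 0 lower (0 lower at an unadjusted p under 0.05, and 0 by DESeq2), beside 5.75% higher over all genes, all 30 fold changes were above 0, and their median was 0.73. Leaving out 1 library gave 20 to 25. Ehhadh, a peroxisomal enzyme of fatty acid oxidation, rose from 375 ± 44.4 to 2939 ± 1947 CPM (SD, n = 4), a log2 fold change of 2.97 (SE 0.41, adjusted p = 3.93e-04). Its fasted LKO libraries stood at 4327, 1092, 4890.3 and 1445 CPM, so that S44 and S46 were the highest, as for Cgref1. In refed LKO livers 10 were called higher (16 by DESeq2, 5 without S48 or S53, 6 without S54 or S55), beside 2.28% over all genes. There 25 of the 30 fold changes were above 0, and the median was 0.45. Ehhadh was among the 10 (2.42, SE 0.40, adjusted p = 0.00376).

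Of the 30 PPARA targets, 28 correlated with Cgref1 at r over 0.5 across the 16 libraries, beside 11.6% of all candidate genes, with a median r of 0.81, and Ehhadh at r = 0.954 ranked 6 of all. For Fam83a 22 did so, beside 8.32% of all, with a median of 0.60, and for Krt23 17 did so, beside 14.4%, with a median of 0.57. These correlations describe libraries that differ by group, and carry no test. The target most like Krt23 was Creb3l3, a transcription factor gene of the fasted liver, with r = 0.905. On refeeding, PPARA targets were called lower in 14 of 30 cases in LKO livers (9 without S52) with a median of -0.43, and in 1 of 30 in control livers (5 by DESeq2, 7 without S51, 2 without S43, S44, S45 or S47, and 0 without S48, S49 or S50) with a median of -0.14. Of all genes, 8.78% were called lower on refeeding in LKO and 7.65% in control livers. Creb3l3 fell in refed LKO livers by 0.43 on the log2 scale (SE 0.12, adjusted p = 0.0179, lost without S46 or S52 and up to 0.0607).

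Of 12 PPARG and steatosis targets tested, 3 were called higher and 1 lower in fasted LKO livers, beside 5.75% and 6.48% of all genes (1 higher without S42, S43 or S44, which is near that share, and 0 lower without S44 or S46), and 1 lower in refed LKO livers (2 lower without S47 or S49, and 1 also higher without S51). On refeeding edgeR and DESeq2 called 0 in control (2 lower at an unadjusted p under 0.05, and 2 called lower without S51), and edgeR called 4 lower in LKO livers (2 without S44, S52 or S55). Over all genes, 2.28% were called higher and 1.35% lower in refed LKO livers. On refeeding, 7.65% of all genes were called lower in control and 8.78% in LKO livers. Cidec, a lipid droplet protein, rose in fasted LKO livers by 2.20 (SE 0.50, adjusted p = 0.00984), a call that held without each of the 16 libraries. It was the gene of the 12 most like Cgref1, at r = 0.869. Of the 12, 3 correlated with Cgref1 at r over 0.5, beside 11.6% of all candidate genes, and the median r was 0.25. Plin4, another droplet coat protein, fell in refed LKO against refed control livers by 1.83 on the log2 scale (SE 0.36, adjusted p = 0.0109).

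Khk belongs to the list of ChREBP targets and fructose use, of which 5 of 11 were called lower in fasted LKO livers (1 also higher without S45 or S49) and 4 lower in refed LKO livers, beside 6.48% and 1.35% of all genes (2 in the refed state without S40, S41, S42, S43, S48, S49, S53, S54 or S55). Pklr, the liver pyruvate kinase, fell by 1.43 on the log2 scale in fasted LKO livers (SE 0.19, adjusted p = 3.44e-04), and Gckr, the glucokinase regulator, by 0.71 (SE 0.16, adjusted p = 0.0107). Mlxipl, which encodes ChREBP itself, fell by 0.55 (SE 0.08, adjusted p = 7.74e-04) and in refed LKO livers by 0.42 (SE 0.08, adjusted p = 0.0115). On refeeding 3 were called higher in each genotype (in control also 1 lower without S47, S51 or S52), and 1 lower in LKO livers (0 without S44, S46, S52 or S55, and 2 without S47). Over all genes 7.79% were called higher and 7.65% lower in control, and 9.28% higher and 8.78% lower in LKO livers. The lower call in LKO livers was near that share.

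The feeding response that Krt23 shows can be set beside genes of the feeding state. Of 12, 3 were called higher on refeeding in control livers, and 4 higher and 2 lower in LKO livers, beside 7.79% of all genes in control and 9.28% and 8.78% in LKO livers. Leaving out 1 library moved these counts at most to 2 higher in control. Srebf1, the main transcription factor gene of lipogenesis, rose by 1.05 in control (SE 0.27, adjusted p = 0.0159, lost without S48 at 0.0615) and by 2.61 in LKO livers (SE 0.28, adjusted p = 3.32e-05). Irs2, an insulin receptor substrate raised by fasting, fell in refed LKO livers by 1.98 on the log2 scale (SE 0.36, adjusted p = 0.00142). It was the gene of the 12 most like Krt23, at r = 0.821. Of the 12, 3 correlated with Krt23 at r over 0.5, beside 14.4% of all candidate genes, and the median r was -0.10. In fasted LKO against fasted control livers 2 were called higher (1 without S40, S41, S43, S44 or S46) and 2 lower (4 without S49), and in the refed genotype contrast edgeR and DESeq2 called 0 (2 lower at an unadjusted p under 0.05, and 1 called lower without S52). Over all genes 5.75% were called higher and 6.48% lower in the fasted genotype contrast, and 2.28% and 1.35% in the refed one.

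Proliferation genes were read for Cgref1 and Krt23, which are both linked to growth. In fasted LKO livers edgeR called 0 of 21 (1 higher and 1 lower at an unadjusted p under 0.05, and 1 called lower by DESeq2, or without S45 or S52). It called 5.75% of all genes higher and 6.48% lower there. In refed LKO livers 10 were called higher and 0 lower (0 lower at an unadjusted p under 0.05, and 0 by DESeq2), beside 2.28% higher over all genes, with a median log2 fold change of 1.04. Mcm5, part of the helicase that unwinds DNA for replication, had a mean of 4.26 ± 1.69 CPM in refed control against 29.4 ± 14.0 CPM in refed LKO livers (SD, n = 4), and rose by 2.76 (SE 0.36, adjusted p = 7.02e-04). Over the list, 19 of 21 fold changes lay above 0 there, and the lowest was -0.81. Mki67 overlapped, at 0.796 to 1.02 CPM in refed control and 0.865 to 1.64 CPM in refed LKO libraries. Myc overlapped too, at 1.39 to 3.83 and 2.35 to 3.73 CPM. On refeeding 11 were called higher in LKO livers (7 without S52) and 1 lower (0 without S47, S52, S54 or S55), and 0 in control (1 higher at an unadjusted p under 0.05 and by DESeq2, or without S45, S46, S51, S52 or S53). Of all genes, 9.28% were called higher and 8.78% lower on refeeding in LKO livers, and 7.79% higher and 7.65% lower in control. The lower call in LKO livers was near that share. Of the 21, 0 correlated with Cgref1 at r over 0.5, 5 with Fam83a and 1 with Krt23, beside 11.6%, 8.32% and 14.4% of all candidate genes. The median r of the list was 0.16 with Cgref1, 0.40 with Fam83a and -0.37 with Krt23.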

How the data were processed

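Members and gene lists were chosen with earlier results of these data known. Reads were aligned with HISAT2 2.0.5 to mm39, per the submitters' processing notes, and the counting tool, its use of strand and the annotation are not given in the sources used here. Per the labels' protocols, libraries were made with random hexamers and dUTP. Raw counts of reads on each gene come as deposited, in 4 tables whose group headings gave every library its group. They also deposited log2 fold changes and p-values, quoted only where the authors' deposited table is named, and gene lengths. In the same tables, 64 other columns with values for single libraries were left aside.

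Joining the tables by identifier gave 25803 genes, with 0 counts in conflict. A gene absent from both tables of a library was set to 0 there, in 3148 genes. The model was edgeR 4.0.16 under R 4.3.3. The 14488 genes that filterByExpr kept, given the 4 groups, received TMM scaling (factors 0.941 to 1.07) and a glmQLFit of all 16 libraries with the groups as one factor, which left 12 residual degrees of freedom and a biological coefficient of variation of 0.185. A gene was called at a glmQLFTest p-value under 0.05 after Benjamini-Hochberg adjustment over all genes tested. SE is the log2 fold change divided by the square root of F. CPM uses the TMM-scaled total, and correlations used log2 CPM with a prior count of 2. The scripts were tested on simulated data. The genes named are the 3 members, Cpt1a, the nearest 2 genes on each side of each member, the 5 genes most like each, and members of 9 gene lists and 14 lists of cell type markers. Those named from lists were picked with their values known, and a few list members, though counted, are not reported here by name. Alternatives were DESeq2 size factors, no filter on low counts, the DESeq2 1.42.0 Wald test, fits to the 2 groups compared, Spearman's rho for likeness, and leaving out each library. The labels name no batch, so no within-batch values are given.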

Additional observations from a re-analysis of the deposited data

Results flagged for a closer look

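Library S40 lay apart from the other fasted control libraries in Fam83a, at 7.15 CPM against 0.803 to 1.39 CPM. Its gap to the nearest of the others was 0.907 of the group's range, above Dixon's 95% critical value for 4 samples. Of the 16 combinations of Cgref1, Fam83a, Krt23 and Cpt1a with a group, this was the only one past that value, and chance flags about 1 in 20. S40 was also the highest fasted control in Krt23 (18.3 CPM) and Osbpl3 (22.9 CPM), and in Cgref1 it was not (4.37 CPM).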

How the results depend on the processing

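No paired analysis was possible because the count columns carry no replicate numbers. Genes called numbered 1772 (fasted) and 526 (refed) for LKO against control, and 2238 (control) and 2616 (LKO) for refed against fasted. The DESeq2 Wald test called 924 genes in the refed genotype contrast, 524 of them among the 526. Leaving out 1 library gave 1048 (without S44) to 1985, 197 (without S48) to 601, 1220 (without S40) to 2483 and 1795 (without S52) to 2730 genes. In the refed genotype contrast the count also fell to 300 without S50 or S53, 293 without S54 and 225 without S55, and in refed against fasted control to 1365 without S50. Under the other alternatives no fold change of Cgref1, Fam83a or Krt23 moved by more than its SE. Leaving out 1 library gave Fam83a 1.87 to 3.47 (fasted) and 2.69 to 3.79 (refed) for LKO against control, and -0.38 (without S40) to 1.63 (without S51) for the difference between the states. Of 377 recomputed gene counts and fold changes 366 were taken as the same. For a gene count this meant a similar size, and for a fold change a move smaller than the SD within groups. Direction was not part of that rule. Among the 366, the sign changed in 3 fits for Cgref1 in refed against fasted control and in 1 for Fam83a there. It also changed in 1 fit for Krt23 in refed LKO against refed control. The low counts of Fam83a in controls, down to 3 reads, limit its fold changes.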
